A study of Homo sapiens with 12 samples.

Results

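Cadherins and non-clustered protocadherins were described in A673, a cell line of Ewing sarcoma, whose tumour cells express the fusion protein EWS-FLI1, an ETS-family transcription factor. The group holds every gene of the array whose symbol is CDH, CDHR or PCDH followed by a number and that has a probe set naming no other gene. This gave 37 genes of 18404 tested, each read by 1 probe set. The clustered protocadherins and Y-linked genes were left out. CDH4, CDH13 and PCDH11X had no probe set of this kind and were not analysed here. By structural class the 37 genes were 4 type I and 13 type II classical cadherins, 3 atypical cadherins, 7 genes of hair-cell and brush-border links and related receptors, 3 delta-1 protocadherins, 5 delta-2 protocadherins and 2 other protocadherins.

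Cadherins are membrane proteins whose extracellular repeats are held rigid by calcium and bind cadherins on the next cell. The cytoplasmic tails of classical cadherins bind beta-catenin and p120-type catenins, and alpha-catenin and vinculin carry the link on to actin. Delta protocadherins lack the catenin-binding tail, adhere more weakly, and are known mostly from sorting and wiring of neurons, where some recruit the actin-regulating WAVE complex. Epithelial cells are marked by CDH1 (E-cadherin), whereas mesenchymal and neural cells carry CDH2 (N-cadherin), and Ewing sarcoma cells have features of both mesenchymal and neural precursors.

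RNA of A673 cells was hybridized to 12 Affymetrix Gene 1.0 ST arrays in 6 groups of 2. The groups were untreated cells at 0 h, cells given the vehicle DMSO for 24 h, cells given 5 nM or 50 nM actinomycin D for 24 h, and cells given a lentiviral shRNA against FLI1 or against lacZ, a bacterial gene, and labelled 48 h. Actinomycin D intercalates into GC-rich DNA and blocks transcription, that of ribosomal RNA genes at the lowest doses. Each shRNA was a single hairpin in a single cell line, and both shRNA groups had virus, Polybrene and puromycin selection, which the untreated cells had not. For the shRNA cells, the methods describe 24 h with virus and then 48 h of puromycin. The DMSO and 5 nM treatments are described as done in duplicate, but how far the 2 arrays of a group came from separate cultures is not described, so p-values measure array-to-array spread alone, and that spread may be technical.

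All values are log2 signals normalized by RMA. A difference of 1 is thus a change of 2-fold, relative to the rest of the same array. Each comparison came from a limma fit of all 12 arrays, with adjustment over 18404 genes. A gene is said to have risen or fallen at an adjusted p under 0.05, errors of changes are standard errors, and the methods' stricter rule is a change over 2-fold with adjusted p under 0.01. FLI1 itself read 7.30 and 7.08 on the FLI1 shRNA arrays and 8.63 and 8.45 on the lacZ shRNA arrays, a change of -1.35. Array medians lay between 6.67 and 6.83. Of 6 Ewing sarcoma markers measured, all 6 lay above a reference for silent genes, the 95th percentile (6.04) of the mean signal of 340 olfactory receptor genes, and 5 fell with FLI1 shRNA. Epithelial markers lay above it for 5 of 9, with KRT18 at 11.00 to 11.35 and KRT8 at 9.40 to 10.25 over all arrays. EPCAM, KRT5, CLDN4 and CLDN7 lay below it. Blood markers lay above it for 1 of 5, with PTPRC at 3.49 to 3.82 on all arrays. Endothelial markers lay above it for 3 of 6, with VWF and TEK below, but KDR, below it by mean, read 7.33 and 7.37 with the FLI1 hairpin and 5.42 and 5.59 with the lacZ hairpin, a rise of 1.85 ± 0.12, while PECAM1 fell by 0.55 ± 0.09. The summed linear signal of the 9 epithelial markers ranged from 3497 in untreated cells to 4306 at 5 nM, and that of the 6 endothelial markers from 395 with DMSO to 505 with FLI1 shRNA. Their part in the results was not tested. In RNA of whole cultures, fewer cells with a transcript and less of it in each cell cannot be told apart.

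By mean signal over all arrays, 21 of the 37 genes lay above the olfactory reference, which 5% of the olfactory receptor genes exceed by construction. They were 8 of 13 type II cadherins, 4 of 5 delta-2 protocadherins, 2 of 3 delta-1, both other protocadherins, 2 of 4 type I cadherins, 3 of 7 hair-cell and brush-border genes, and 0 of 3 atypical cadherins. CDH5 passed it by group mean only at 5 nM, and CDHR3 only with DMSO. In no group was it passed by 14 genes, CDH1, CDH3 and the tip-link gene PCDH15 among them. For those 14 a difference between groups may lie within background signal.

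CDH1 and CDH2 lay on opposite sides of the reference. CDH1 read 4.80 and 4.87 in untreated cells, 4.73 and 4.88 with DMSO, 5.42 and 5.01 at 5 nM, 5.06 and 5.08 at 50 nM, 4.79 and 5.34 with the lacZ hairpin, and 4.92 and 4.65 with the FLI1 hairpin. No array reached the reference, and CDH1 passed the test in none of the comparisons with control cells. CDH2 read 9.59 and 9.71 in untreated cells, 9.76 and 9.72 with DMSO, 9.02 and 8.97 at 5 nM, 9.91 and 9.96 at 50 nM, 9.67 and 9.66 with the lacZ hairpin, and 10.71 and 10.67 with the FLI1 hairpin. The 5 nM arrays were thus the lowest and the FLI1 shRNA arrays the highest, with no overlap with any other group.

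**Figure D1:**
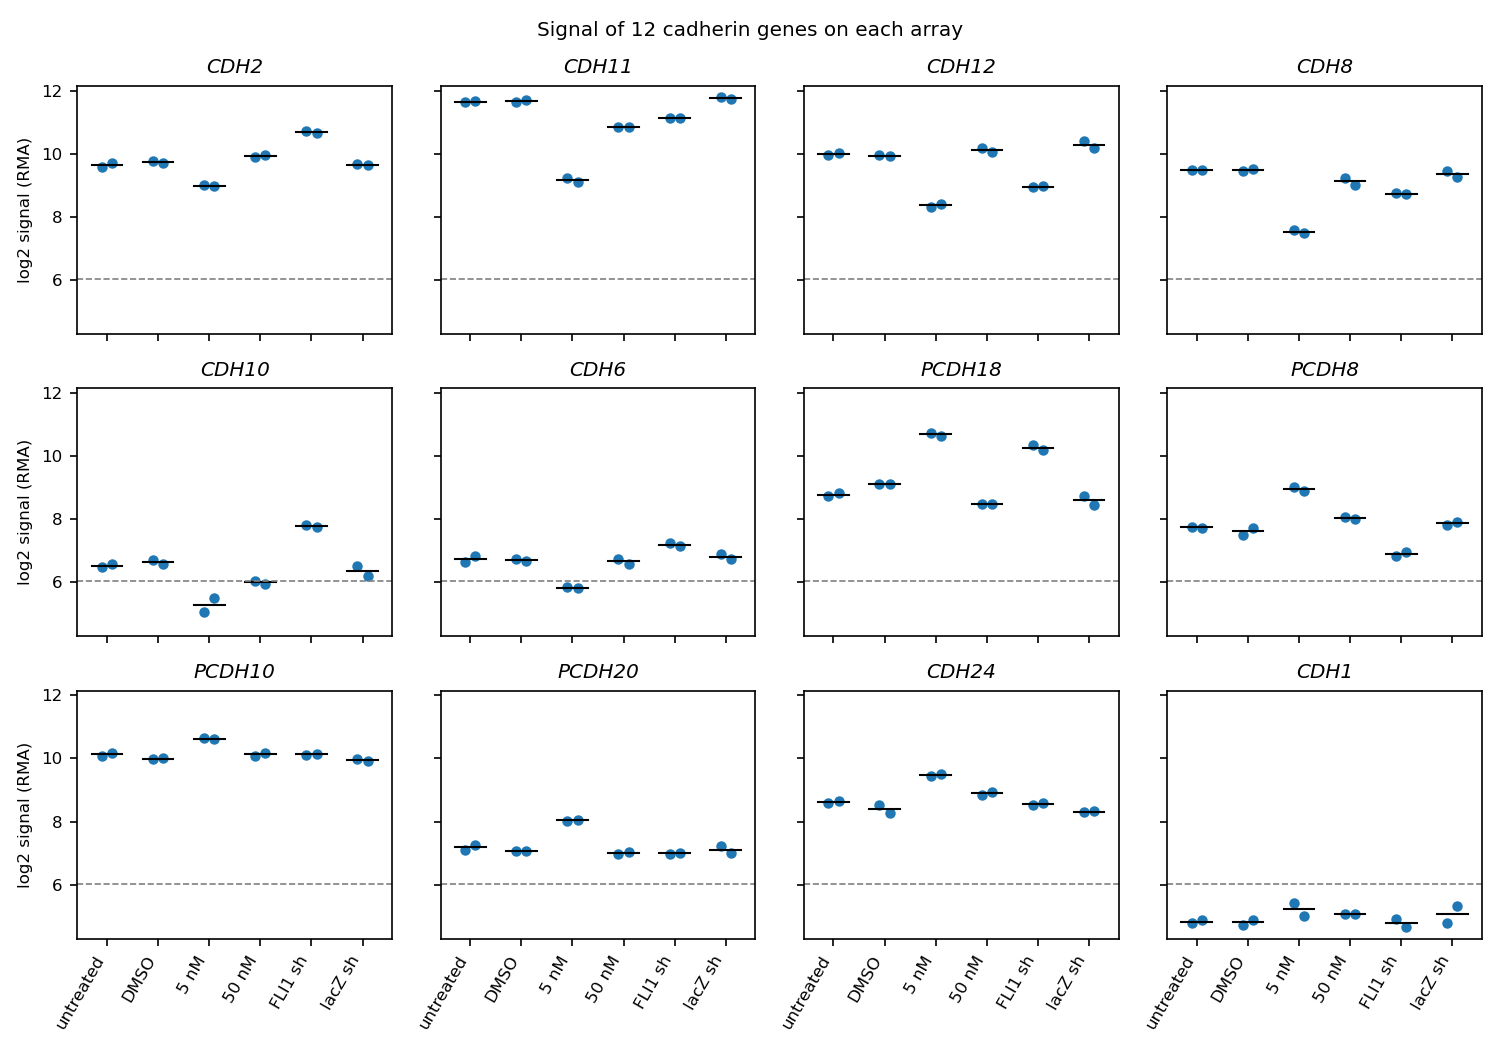
Log2 RMA signal (vertical axis) of 12 cadherin genes on each of the 12 arrays, by group. Points are arrays, bars are means of 2 arrays, and the dashed line is the olfactory reference at 6.04. CDH1 stays below the line on every array, CDH10 and CDH6 drop below it at 5 nM, and PCDH18 is high both at 5 nM and with FLI1 shRNA.

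With FLI1 shRNA, which asks what depletion of the fusion does, cadherins moved in both directions. PCDH18, CDH10 and CDH2 rose by over 2-fold and CDH12 fell by over 2-fold. In all, 5 of the 37 genes rose and 5 fell, against 14.6% and 9.28% of all genes. By the methods' rule 3 rose and 1 fell, against 1.21% and 0.598% of all genes. The median change of the 37 genes was -0.03, and that of all genes -0.01. The 5 genes that rose were PCDH18, CDH10, CDH2, CDH6 and PCDH7, and the 5 that fell were CDH12, PCDH8, CDH23, CDH8 and CDH11. Without FLI1 shRNA replicate 1, or without lacZ shRNA replicate 2, 3 genes rose, CDH6 and PCDH7 being lost, and without lacZ shRNA replicate 1, 8 fell.

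Among classical cadherins the neural type II gene CDH12 fell most. It read 8.96 and 8.97 in FLI1 shRNA cells, and 10.40 and 10.17 in lacZ shRNA cells. The groups were far apart, and the log2 change was -1.33 ± 0.09 (adjusted p = 3.89e-06). CDH11, the osteoblast and mesenchymal cadherin, went from 11.79 and 11.74 to 11.13 and 11.14, a change of -0.63 ± 0.07. CDH8, a type II cadherin of the brain, changed likewise by -0.63 ± 0.09, from 9.47 and 9.27 to 8.75 and 8.73. Neither gene's groups overlapped, which is common with 2 arrays each. With FLI1 shRNA, 6157 of all 18404 genes were higher and 5461 lower without overlap, beside 8 and 8 of the 37.

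CDH2 changed by 1.03 ± 0.07 with FLI1 shRNA (adjusted p = 4.19e-06), from the values given above. CDH10, a further neural type II cadherin, read 7.80 and 7.74 in FLI1 shRNA cells, and 6.52 and 6.21 in lacZ shRNA cells. The lacZ arrays lay just above the olfactory reference and the FLI1 shRNA arrays well above it. The change was 1.41 ± 0.14 (adjusted p = 4.42e-05). CDH6, the cadherin of kidney and neural crest, rose by 0.38 ± 0.09. CDH7 (0.45 ± 0.16, adjusted p = 0.0661) and CDH24 (0.24 ± 0.09, adjusted p = 0.0736) did not pass the test.

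Among protocadherins, the delta-2 genes PCDH18 and PCDH8 moved in opposite directions. PCDH18 read 10.34 and 10.18 in FLI1 shRNA cells, and 8.75 and 8.46 in lacZ shRNA cells. The change was 1.66 ± 0.10 (adjusted p = 2.27e-06), the largest rise of the 37 genes. PCDH8, known from activity-dependent removal of N-cadherin in neurons, went from 7.83 and 7.92 to 6.83 and 6.95. Its groups did not overlap, and the change was -0.99 ± 0.09 (adjusted p = 3.07e-05), just short of 2-fold. The delta-1 gene PCDH7 rose by 0.25 ± 0.07. PCDH10 (0.19 ± 0.07, adjusted p = 0.0785) and PCDH17 (-0.03 ± 0.09) did not pass. CDH23, a component of the tip links of hair cells, fell by 0.84 ± 0.08 on the log2 scale, while its tip-link partner PCDH15 stayed below the olfactory reference on every array.

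Promoters are shown for 4 genes, chosen after their values were seen, because they hold the 4 combinations of direction met below with FLI1 shRNA and 5 nM actinomycin D. CDH12 fell in both, PCDH18 rose in both, CDH2 rose with the shRNA and fell with the drug, and PCDH8 did the reverse. Each window runs from 250 bases before to 50 after the gene's start, 5′ to 3′ on the gene's strand, from RefSeq on GRCh38.p14, and is the most upstream window where a gene has several. The windows are chr5:22853295-22853594 for CDH12, chr4:137532445-137532744 for PCDH18, chr18:28177081-28177380 for CDH2 and chr13:52848591-52848890 for PCDH8, all on the minus strand. Capitals mark a tandem GGAA match.
CDH12: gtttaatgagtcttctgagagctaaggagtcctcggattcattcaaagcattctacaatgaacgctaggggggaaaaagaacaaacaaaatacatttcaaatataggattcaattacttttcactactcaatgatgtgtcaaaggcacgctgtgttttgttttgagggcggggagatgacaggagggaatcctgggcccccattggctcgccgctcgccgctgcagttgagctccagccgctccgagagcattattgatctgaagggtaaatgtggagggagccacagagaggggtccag
PCDH18: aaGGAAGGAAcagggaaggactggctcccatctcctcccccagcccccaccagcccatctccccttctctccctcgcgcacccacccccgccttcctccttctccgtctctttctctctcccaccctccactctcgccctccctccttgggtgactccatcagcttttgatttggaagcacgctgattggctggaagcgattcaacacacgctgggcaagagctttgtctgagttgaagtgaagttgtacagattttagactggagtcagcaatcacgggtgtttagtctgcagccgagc
CDH2: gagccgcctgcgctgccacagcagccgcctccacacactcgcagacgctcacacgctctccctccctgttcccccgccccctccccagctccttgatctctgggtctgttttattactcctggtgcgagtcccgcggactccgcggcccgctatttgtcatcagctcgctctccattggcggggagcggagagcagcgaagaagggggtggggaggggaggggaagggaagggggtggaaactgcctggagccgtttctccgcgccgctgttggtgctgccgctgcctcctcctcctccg
PCDH8: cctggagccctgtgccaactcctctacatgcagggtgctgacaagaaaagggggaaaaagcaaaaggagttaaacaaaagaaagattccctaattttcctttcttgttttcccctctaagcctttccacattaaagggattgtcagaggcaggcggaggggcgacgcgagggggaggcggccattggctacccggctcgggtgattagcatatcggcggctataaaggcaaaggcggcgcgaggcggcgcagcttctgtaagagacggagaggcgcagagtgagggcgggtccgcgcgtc

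Windows were at hand for 24 of the 37 genes, 36 windows in all, and 3 motifs were searched on both strands. GGAAGGAA, a short tandem of the GGAA core that ETS factors and EWS-FLI1 bind, was found in 3 member windows, those of CDH23, CDH7 and PCDH18, and in 3.67% of 34961 windows of all genes. The match in PCDH18 begins at -248 from the gene's start. CCGGAAG, a single ETS site that shares the letters GGAAG with the tandem, was in 0 of 36 member windows and in 10.3% of all windows. CACCTG, the E2-box that SNAI and ZEB repressors bind and that overlaps neither, was in 5 member windows, of CDH23, CDHR2, PCDH1 and PCDH15, and in 20.6% of all windows. These counts describe letters in these windows only.

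At 5 nM actinomycin D, 6 of 13 type II classical cadherins fell and 2 rose, and of the 10 delta and other protocadherins 7 rose and 1 fell. CDH11, CDH8, CDH12 and CDH10 fell by over 2-fold, and PCDH18, PCDH8 and CDH24 rose by over 2-fold. Of the 37 genes 9 rose and 10 fell, against 30.3% and 23% of all genes. By the methods' rule 3 rose and 4 fell, against 2.64% and 7.86% of all genes. The median change was 0.09, beside 0.12 for all genes. With each array centred on 57 ribosomal protein genes instead, the median of all genes moved by -0.35. Then 5 of the 37 genes rose and 15 fell, beside 1696 and 8153 of all 18404 genes. The share of calls over all genes that were higher went from 56.9% to 17.2%.

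CDH11 showed the largest change of the group. It read 9.25 and 9.10 at 5 nM, and 11.64 and 11.70 with DMSO. The drug arrays lay below every other array of the series, at 17.7% of the DMSO signal, and the change was -2.50 ± 0.07 (adjusted p = 3.38e-09). CDH8 went from 9.46 and 9.52 to 7.58 and 7.49, a change of -1.96 ± 0.09 (adjusted p = 3.05e-08). CDH12 read 8.32 and 8.41 at 5 nM, and 9.97 and 9.92 with DMSO. As with the previous genes the groups did not overlap, and CDH12 changed by -1.58 ± 0.09 (adjusted p = 1.15e-07). At 5 nM, 8678 of all 18404 genes were higher and 5196 lower without overlap, beside 17 and 12 of the 37.

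CDH10 went from 6.71 and 6.59 to 5.07 and 5.50, a change of -1.37 ± 0.14, which took it below the olfactory reference, so that its fall may be understated. CDH6 went from 6.73 and 6.69 to 5.84 and 5.83, also below the reference, a change of -0.87 ± 0.09. CDH7 changed by -0.95 ± 0.16, with the 5 nM arrays unlike each other at 6.43 and 5.83. CDH2 changed by -0.75 ± 0.07 (adjusted p = 5.13e-06), the sole type I gene of 4 to pass the test. CDH1 changed by 0.41 ± 0.18 (adjusted p = 0.07) and did not pass it.

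CDH24 was the type II cadherin that rose clearly. It read 9.43 and 9.50 at 5 nM, and 8.52 and 8.27 with DMSO. The groups did not overlap, and the change was 1.07 ± 0.09 (adjusted p = 2.1e-06). The endothelial type II gene CDH5, which had not passed with FLI1 shRNA, rose by 0.36 ± 0.11 from below the olfactory reference, a call that was lost without either DMSO array or without 5 nM replicate 2, and under ribosomal centring, where it read 0.00 (adjusted p = 0.983). CDHR3, an airway cilia gene with a mean below the reference, fell by 0.64 ± 0.10 on the log2 scale, and CDH23 by 0.34 ± 0.08.

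PCDH18 read 10.74 and 10.64 at 5 nM, and 9.13 and 9.13 with DMSO, a change of 1.56 ± 0.10 (adjusted p = 3.33e-07). PCDH8 went from 7.51 and 7.74 to 9.01 and 8.91, a change of 1.34 ± 0.09 (adjusted p = 4.84e-07). PCDH20 went from 7.06 and 7.08 to 8.02 and 8.05, a change of 0.97 ± 0.09 (adjusted p = 4.71e-06). The 5 nM arrays were the highest of all 12 for each of these 3 genes. PCDH10, a delta-2 gene often silenced by methylation in tumours, rose by 0.63 ± 0.07, and smaller rises were seen in PCDH1 (0.45 ± 0.12), PCDH9 (0.40 ± 0.11) and PCDH12 (0.26 ± 0.08). PCDH17 fell by 0.29 ± 0.09 on the log2 scale. The calls of PCDH1, PCDH9 and PCDH12 were lost under ribosomal centring, where PCDH12 read -0.09, and so they were with 1 array left out, namely DMSO replicate 1 for PCDH1 and PCDH9, DMSO replicate 2 for PCDH12, and 5 nM replicate 2 for PCDH9 and PCDH12. That of PCDH17 was lost without DMSO replicate 1 or 5 nM replicate 1.

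At 50 nM, with the same vehicle arrays as controls, CDH11, CDH10, PCDH18 and PCDH7 fell most and CDH24 rose most, none by 2-fold. Of the 37 genes 6 rose and 8 fell, against 25.8% and 23.3% of all genes, and by the methods' rule 0 rose and 0 fell, against 0.598% and 5.38%. The median change was 0.10 for the 37 genes and for all genes. Under ribosomal centring the median of all genes moved by -0.26. Then 1 of the 37 genes rose and 13 fell, beside 977 and 6999 of all 18404 genes. The share of calls over all genes that were higher went from 52.5% to 12.2%. Without DMSO replicate 1, 2 genes rose and 5 fell, without 50 nM replicate 1, 3 rose, and without 50 nM replicate 2, 3 rose and 4 fell.

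CDH11 read 10.85 on both 50 nM arrays, a change of -0.82 ± 0.07 from DMSO (adjusted p = 5.64e-06). CDH10 read 6.04 and 5.96 (-0.65 ± 0.14), at the olfactory reference. PCDH18 read 8.50 and 8.49, a change of -0.64 ± 0.10 (adjusted p = 0.000444). PCDH18 was therefore below its DMSO arrays at 50 nM and above them at 5 nM. PCDH7 went from 10.22 and 10.15 to 9.58 and 9.53, a change of -0.63 ± 0.07 (adjusted p = 3.42e-05), whereas at 5 nM it had changed by -0.17 ± 0.07 and had not passed the test. CDH7 (-0.55 ± 0.16), CDH8 (-0.37 ± 0.09), CDHR3 (-0.35 ± 0.10) and PCDH17 (-0.26 ± 0.09) also fell, but all 4 calls were lost without 50 nM replicate 2 and, apart from CDH8, without DMSO replicate 1.

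CDH24 rose by 0.50 ± 0.09 at 50 nM (adjusted p = 0.000893), reading 8.86 and 8.95. PCDH8 rose by 0.42 ± 0.09, reading 8.09 and 8.00, a call lost under ribosomal centring. CDHR1 (0.47 ± 0.14), the neural type II gene CDH22 (0.39 ± 0.14), PCDH1 (0.34 ± 0.12) and CDH2 (0.20 ± 0.07) rose as well. All of these 4 were lost under ribosomal centring, where CDH2 read -0.06. With 1 array left out, CDH2 was lost whichever of the 4 it was, CDH22 without either DMSO array or 50 nM replicate 2, CDHR1 without DMSO replicate 1 or 50 nM replicate 1, and PCDH1 without DMSO replicate 1 or either 50 nM array. CDHR1 lay below the olfactory reference on all arrays. CDH12 changed by 0.18 ± 0.09 (adjusted p = 0.107) and did not pass the test.

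**Figure D2:**
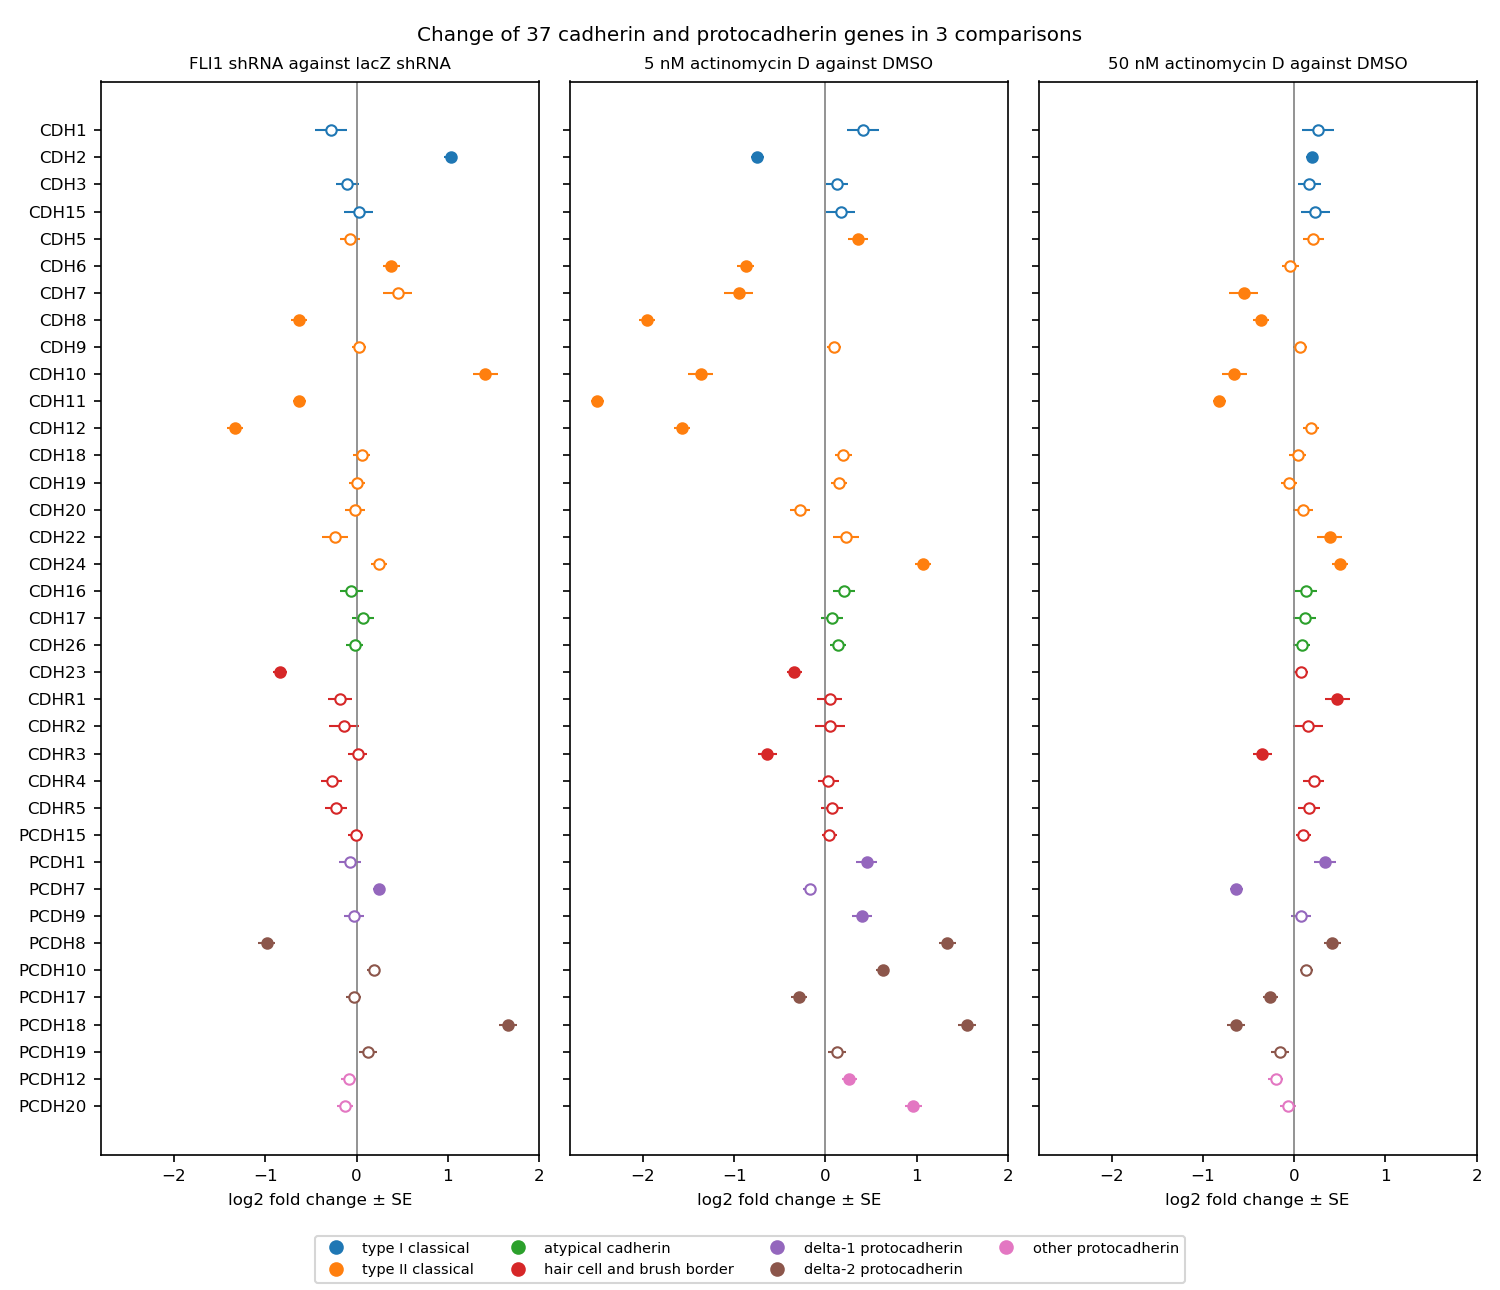
Log2 fold change with standard error (horizontal axis) of the 37 genes, grouped and coloured by class, for FLI1 shRNA against lacZ shRNA and for 5 nM and 50 nM actinomycin D against DMSO. Filled points passed the test (adjusted p under 0.05) and open points did not. Type II cadherins reach -2.50 at 5 nM, and no gene reaches a change of 1 at 50 nM.

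The doses were compared directly, since both responses rest on the same DMSO arrays. At 50 nM against 5 nM, 10 of the 37 genes were higher and 9 lower, against 21.6% and 23.1% of all genes. The classical cadherins CDH12 (1.76 ± 0.09), CDH11 (1.68 ± 0.07), CDH8 (1.59 ± 0.09), CDH2 (0.94 ± 0.07), CDH6 (0.83 ± 0.09) and CDH10 (0.71 ± 0.14) were higher at 50 nM. The protocadherins PCDH18 (-2.19 ± 0.10), PCDH20 (-1.03 ± 0.09), PCDH8 (-0.92 ± 0.09), PCDH10 (-0.49 ± 0.07), PCDH12 (-0.47 ± 0.08) and PCDH7 (-0.46 ± 0.07) were lower, as was CDH24 (-0.56 ± 0.09). Smaller differences that passed were CDHR1, CDH23, CDH20 and CDHR3, higher by 0.29 to 0.43, and PCDH9 and PCDH19, lower, at -0.33 and -0.28. Of these 6, all but CDH23 lost the call when some single 5 nM or 50 nM array was left out. Under ribosomal centring the share of calls over all genes that were higher went from 48.3% to 59.5%.

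For CDH12 the 50 nM arrays, 10.19 and 10.07, lay above those of DMSO, while the 5 nM arrays lay far below. For CDH8 the 50 nM arrays, 9.22 and 9.03, and for CDH11 those at 10.85, lay between the 5 nM and the DMSO arrays. PCDH20 read 6.97 and 7.04 at 50 nM, just under DMSO. Of the 4 genes that fell by over 2-fold at 5 nM, CDH11, CDH8 and CDH10 fell at 50 nM too, and CDH12 did not pass.

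The FLI1 shRNA and 5 nM responses have separate controls, and their difference was tested as an interaction. The shRNA response was higher for 8 of the 37 genes and lower for 10, against 22.8% and 23.7% of all genes. PCDH18 rose in both comparisons, and CDH8, CDH11, CDH12 and CDH23 fell in both. CDH2, CDH6 and CDH10 rose with the shRNA and fell with the drug, and PCDH8 fell with the shRNA and rose with the drug. Under ribosomal centring the shRNA response was higher for 13 of the 37 genes and lower for 3, beside 7103 and 1301 of all 18404 genes. The share of calls over all genes that were higher went from 49% to 84.5%.

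The differences (shRNA response minus 5 nM response) of the genes that moved in opposite directions were 2.77 ± 0.19 for CDH10, 1.78 ± 0.10 for CDH2, 1.26 ± 0.13 for CDH6 and -2.32 ± 0.13 for PCDH8. Of the genes that fell in both, CDH11 (1.87 ± 0.10) and CDH8 (1.32 ± 0.13) fell less with the shRNA and CDH23 (-0.50 ± 0.11) fell more, though under ribosomal centring the CDH23 difference was not passed. CDH12 differed by 0.25 ± 0.12, with a 95% interval from -0.03 to 0.52, and PCDH18 by 0.10 ± 0.14, with an interval from -0.21 to 0.41. These 2 differences did not pass, but under ribosomal centring both did, at 0.61 (adjusted p = 0.00232) for CDH12 and 0.47 (adjusted p = 0.0184) for PCDH18. CDH7 (1.40 ± 0.22), CDHR3 (0.65 ± 0.14) and PCDH7 (0.42 ± 0.10) were the other genes with a higher shRNA response. PCDH20 (-1.09 ± 0.13), CDH24 (-0.83 ± 0.12), CDH1, PCDH1, PCDH10, PCDH9, CDH5 and PCDH12 had a lower one in the limma fit, those after CDH24 between -0.70 and -0.35. Of these, the calls of CDH1, CDH5, PCDH1, PCDH9 and PCDH12 were lost without lacZ shRNA replicate 2, and each also without other arrays. Under ribosomal centring these 5 and PCDH10 (-0.08, adjusted p = 0.585) did not pass. Without DMSO replicate 1, DMSO replicate 2 or FLI1 shRNA replicate 2 the count of lower genes was 6, and without lacZ shRNA replicate 2 it was 5.

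**Figure D3:**
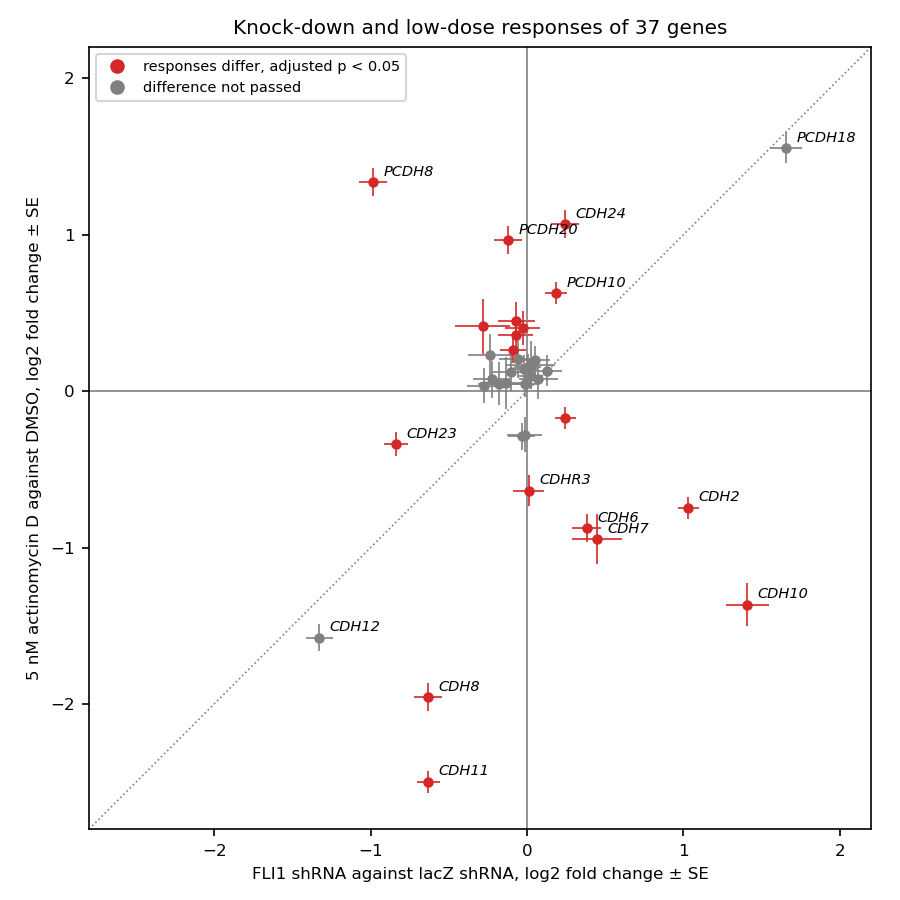
Log2 fold change with FLI1 shRNA (horizontal axis) against that at 5 nM actinomycin D (vertical axis) for the 37 genes, with standard errors; the dotted diagonal marks equal changes. Red points differ between the responses (adjusted p under 0.05). PCDH18 and CDH12 did not differ beyond the test's threshold, though they passed it under ribosomal centring. CDH10 and CDH2 rose with the shRNA and fell with the drug, and PCDH8 did the reverse.

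The controls showed how far these genes move without either agent. DMSO against untreated cells gave 0 genes higher and 0 lower in limma, against 0.00543% and 0% of all genes. At an unadjusted p under 0.05 there were 1383 of all 18404 genes and 3 of the 37. These were PCDH18 (0.35 ± 0.10), CDHR3 (0.32 ± 0.10) and CDH24 (-0.21 ± 0.09). Their drug changes are measured from DMSO means of 9.13, 6.33 and 8.40, in that order. Untreated means were 8.78, 6.01 and 8.61, nearer to the 50 nM means of 8.50, 5.98 and 8.90. The lacZ shRNA against untreated cells gave 0 and 0 in limma, against 0.815% and 2.26% of all genes. At an unadjusted p under 0.05 there were 3098 of all 18404 genes and 5 of the 37. These were CDH20 (0.34 ± 0.11), PCDH15 (0.30 ± 0.08), CDH12 (0.29 ± 0.09), PCDH10 (-0.19 ± 0.07) and CDH24 (-0.29 ± 0.09). With dim genes left out 1 gene was higher and 1 lower in this comparison, and limma with trend and robust estimation gave 1 higher. Time differed as well as treatment in both, which cannot be told apart.

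Many of these genes are long, and the changes at 5 nM went with gene span, the distance from start to end in RefSeq on GRCh38.p14. The median span was 98.2 kb for the 37 genes and 27.3 kb for 16897 protein-coding genes. Over the 37 genes the 5 nM change and span had a Spearman correlation of -0.572, and over the 21 above the olfactory reference of -0.79. It was -0.522 over all protein-coding genes and -0.625 over those above the reference. The genes share the same 4 arrays and are not independent. Of the 10 above the reference that span over 100 kb, 8 fell and 0 rose, with a median change of -0.91, while 78.4% of 2161 such protein-coding genes fell, with a median of -0.92. Of the 11 above it that span up to 100 kb, 7 rose and 1 fell, with a median of 0.45, while 40.5% of such protein-coding genes rose and 21.8% fell, with a median of 0.18. Without regard to the reference, 8 of 17 members over 100 kb fell (47.1%), with a median of -0.28, while 57.6% of such protein-coding genes fell, with a median of -0.49. No difference between members and other genes was tested.

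The genes that fell by over 2-fold at 5 nM spanned 1103 kb (CDH12), 389 kb (CDH8), 180 kb (CDH11) and 158 kb (CDH10). Those that rose by over 2-fold spanned 5.75 kb (PCDH8), 10.5 kb (CDH24) and 13.6 kb (PCDH18). PCDH7, at 426 kb, changed by -0.17 ± 0.07 at 5 nM. The correlation with span was -0.372 at 50 nM and 0.135 with FLI1 shRNA over the 37 genes. Over all protein-coding genes it was -0.286 and 0.131. The part of span in these changes was not tested. The median span was 158 kb for type II cadherins and 59.3 kb for delta-2 protocadherins. It was longest, 426 kb, for the 3 delta-1 protocadherins, and is the span of PCDH7, which did not pass at 5 nM. The other 2, PCDH1 (25.3 kb) and PCDH9 (928 kb), rose, and 0 fell. PCDH9 lay below the olfactory reference in every group. Both rises were lost under ribosomal centring and without DMSO replicate 1.

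**Figure D4:**
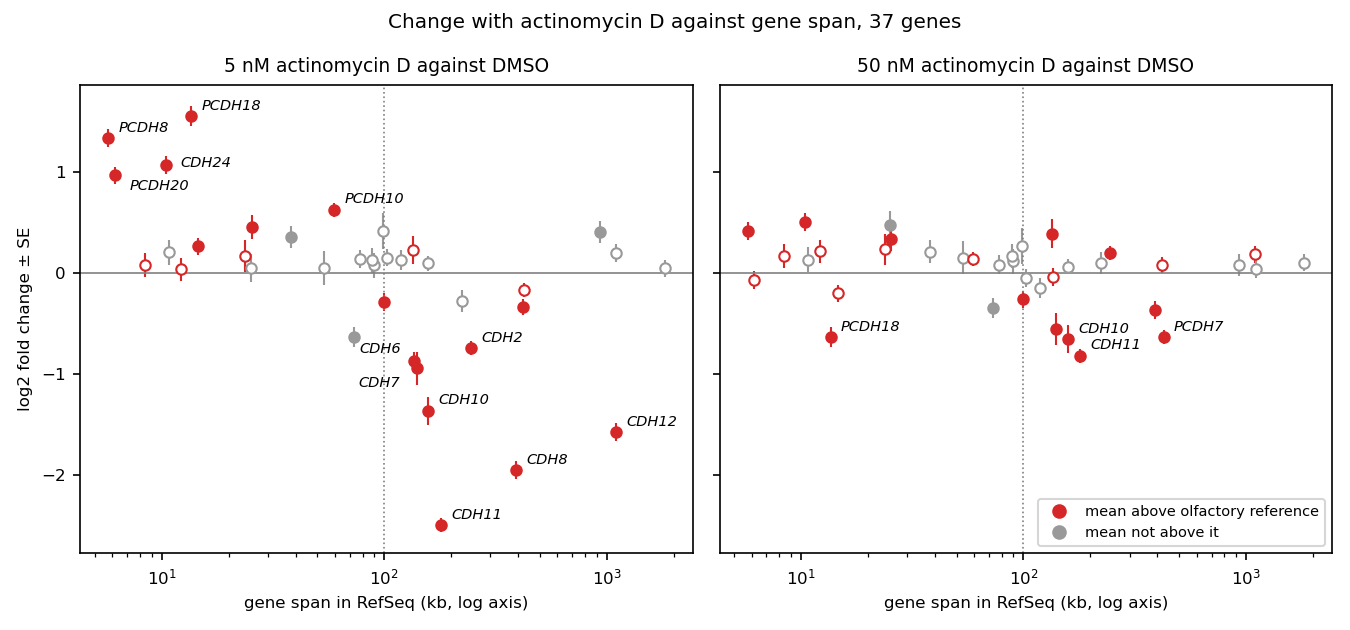
Log2 fold change with standard error (vertical axis) against gene span in kb (horizontal log axis) for the 37 genes at 5 nM and 50 nM actinomycin D. Red points have a mean signal above the olfactory reference, filled points passed the test, and the dotted line marks 100 kb. At 5 nM 8 of the 10 red genes beyond the line fell and 7 of the 11 before it rose, while PCDH17, at 99.2 kb just before it, fell.

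Promoter base composition, of interest because actinomycin D binds GpC steps, was also tabulated for the 24 genes with a window, taking the most upstream window of each gene. The median number of GpC steps was 22.5 for these genes and 24 for all genes. It was 27 for the 5 that rose at 5 nM and 20 for the 8 that fell, and also 20 for the 11 that did not pass the test.

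The proteins that cadherins work with were described through lists. Of 11 catenins and actin linkers measured, 3 rose and 0 fell with FLI1 shRNA, 1 rose and 4 fell at 5 nM, and 1 rose and 2 fell at 50 nM. Their median changes were 0.19, 0.09 and 0.06. These counts and those of the lists below stand beside 14.6% of all genes that rose and 9.28% that fell with the shRNA, 30.3% and 23% at 5 nM, and 25.8% and 23.3% at 50 nM, with medians of -0.01, 0.12 and 0.10. No list was tested against other genes. VCL (vinculin) changed by 0.98 ± 0.07 with the shRNA, beside 0.30 ± 0.07 for CTNNA1 (alpha-catenin) and 0.22 ± 0.07 for CTNNB1 (beta-catenin). At 5 nM PKP4, a p120-family catenin, changed by -2.10 ± 0.09, AFDN (afadin) by -1.22 ± 0.09 and CTNNA1 by -0.67 ± 0.07. At 50 nM AFDN (-0.68 ± 0.09) and PKP4 (-0.41 ± 0.09) fell and CTNNA3 rose by 0.30 ± 0.09, though CTNNA3 lay below the olfactory reference on all arrays. CTNNB1 changed in neither drug comparison beyond the test's threshold.

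All 10 measured repressors of classical cadherins lay above the olfactory reference by mean signal. With FLI1 shRNA 2 rose and 1 fell, and at each dose of the drug 5 rose and 3 fell, with medians of 0.02, 0.33 and 0.20. SNAI2, a zinc-finger repressor of CDH1, changed by 1.78 ± 0.12 with the shRNA, 2.53 ± 0.12 at 5 nM and 1.62 ± 0.12 at 50 nM. SNAI1 changed by 2.76 ± 0.11 at 5 nM and 1.35 ± 0.11 at 50 nM. ZEB2 changed by -2.12 ± 0.08 at 5 nM and -1.13 ± 0.08 at 50 nM, and with the shRNA TWIST1 changed by -0.51 ± 0.07 and ZEB1 by 0.35 ± 0.08. CDH1 itself, as given above, stayed below the olfactory reference throughout.

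Of 12 further members of the superfamily with large or divergent extracellular parts (FAT, dachsous, CELSR and calsyntenin genes), 3 rose and 3 fell with FLI1 shRNA, 0 rose and 6 fell at 5 nM, and 1 rose and 4 fell at 50 nM, with medians of 0.03, -0.18 and -0.02. FAT4, a planar polarity cadherin, changed by -1.63 ± 0.09 at 5 nM and -1.20 ± 0.09 at 50 nM. FAT1 changed by -1.23 ± 0.08 at 5 nM, -0.60 ± 0.08 at 50 nM and 0.62 ± 0.08 with the shRNA. With the shRNA CLSTN2 (-0.69 ± 0.07) and DCHS2 (-0.55 ± 0.07) fell, but DCHS2 lay below the olfactory reference on all arrays, so its change may be of background. Of 12 desmosomal genes, of which 4 lay above the olfactory reference, 0 rose and 2 fell with the shRNA, 5 rose and 1 fell at 5 nM, and 2 rose and 0 fell at 50 nM, with medians of -0.02, 0.23 and 0.11. PKP2, a desmosomal plaque protein, changed by -1.15 ± 0.09 with the shRNA.

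Of 4 subunits of the WAVE complex and the kinase TAOK2, which act with delta protocadherins, 3 rose and 0 fell with FLI1 shRNA, 1 rose and 4 fell at 5 nM, and 0 rose and 1 fell at 50 nM, with medians of 0.29, -0.48 and 0.02. The gene that rose at 5 nM (0.32 ± 0.07) and fell at 50 nM (-0.25 ± 0.07) was TAOK2, and the 4 subunits fell at 5 nM. ABI1 changed by -1.46 ± 0.07 and NCKAP1 by -1.33 ± 0.07 at 5 nM. Of 8 genes of cadherin cleavage and turnover, 1 rose and 1 fell with the shRNA, 6 rose and 1 fell at 5 nM, and 1 rose and 1 fell at 50 nM, with medians of 0.05, 0.38 and 0.18. ADAM10, the protease that sheds CDH1 and CDH2, changed by -0.96 ± 0.08 at 5 nM, and CBLL1, an E3 ligase that acts on CDH1, by 0.91 ± 0.09. CBLL1 was also the gene that fell at 50 nM, from 10.40 and 10.47 to 9.81 and 9.81. Of 6 Usher and tip-link partners of CDH23 and PCDH15, of which 2 lay above the olfactory reference, 1 rose with the shRNA, 2 rose at 5 nM and 3 rose at 50 nM, and 0 fell, with medians of -0.01, 0.12 and 0.18.

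Over the 3 comparisons with control cells, 22 of the 37 genes passed the test at least once and 15 never did. CDH2, CDH8, CDH10, CDH11, PCDH8 and PCDH18 passed in all 3. Such counts were not made over all genes, of which 30.3% rose and 23% fell at 5 nM alone, so they mark no trait of cadherins. Of the 22, CDH5, CDHR1, CDHR3 and PCDH9 had a mean below the olfactory reference. All 3 atypical cadherins, CDH16, CDH17 and CDH26, were among the 15, and so were CDH1, CDH3, CDH15, CDH9, CDH18, CDH19, CDH20, CDHR2, CDHR4, CDHR5, PCDH15 and PCDH19.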

How the data were processed

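RNA of A673 cells was measured on 12 arrays, 2 in each of 6 groups taken from the labels. The deposited table holds log2 signals, made by the authors in the affy package through background correction and RMA. The affy version was not given in the sources used here. RMA gives the probes of all arrays the same distribution, so changes are relative to the rest of an array. The number of arrays limits the precision. The sheet had 32321 rows, of which 19158 name 1 gene, 1388 several and 11775 none in the platform annotation. Of several probe sets for a gene the brightest by mean was kept, leaving 18404 genes, and 0 value columns lacked a sample. Gene names are those of that annotation, and no symbol of the group had to be updated.

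The tests were run with limma 3.58.1 under R 4.3.3 (group means, all arrays, 6 residual and 4.45 prior degrees of freedom, Benjamini-Hochberg adjustment). The knock-down comparison, tested on simulated data with 200 of 18404 genes changed, recovered 56.7% of changes of 0.5 log2, 94% of 1 and 100% of 2. It made 7 false calls. In the real comparison far more genes were called, 2691 up and 1707 down, so these rates may not hold there. Any gene of the group could be named, with values on every array for those past the methods' rule and for CDH1 and CDH2, and of each list up to 3 of the largest changes. Genes named beyond this, as PCDH8, PCDH7, CDH6, CDH7, PCDH20 and CDH24 in some comparisons, were given array values after these were seen. The array values of KRT8 and KRT18 and the changes of ZEB1 and TWIST1 were likewise given after they were seen. Array values of FLI1, PTPRC, KDR and CBLL1 also lay beyond this rule. The members, lists and tests were chosen with earlier results of these data known. Alternatives were a replicate block, a fit of only the arrays compared, omission of dim genes (mean signal under the 40th percentile), the mean over probe sets, repeated quantile normalization, each array left out, ribosomal protein centring, eBayes with trend and robust variance, and, added after the data were seen, a crossed block.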

Additional observations from a re-analysis of the deposited data

How the results depend on the processing

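Over named genes that passed the test, 850 values came from alternative settings (the mean over probe sets is not counted, since each gene of the group has 1 probe set): 724 kept their direction and call, 123 kept direction but lost the call, and 3 changed sign, all under ribosomal protein centring (PCDH12 at 5 nM, -0.0902; CDH2 at 50 nM, -0.0596; PCDH12 in the shRNA minus 5 nM difference, 0.0153). With dim genes left out, by which dim members were not tested, 5 rose at 5 nM, 5 fell at 50 nM, 5 were higher at 50 nM than at 5 nM, 1 was higher and 1 lower with lacZ shRNA than in untreated cells, and the shRNA response was higher for 4 and lower for 5. With quantile normalization applied again, 5 rose at 5 nM and the shRNA response was lower for 5. With ribosomal centring, 5 rose at 5 nM, 1 rose and 13 fell at 50 nM, and the shRNA response was higher for 13 and lower for 3. Counts over all genes under that centring are given above. With trend and robust estimation 1 gene was higher with lacZ shRNA than in untreated cells. For quantile normalization and trend and robust estimation the cause was not tested. Leaving out 1 array at a time, by which the lone array of a group is taken to vary like the others, gave 3 to 5 genes up and 5 to 8 down with FLI1 shRNA, 6 to 10 and 9 to 11 at 5 nM, 2 to 4 and 4 to 7 at 50 nM, 8 to 11 and 7 to 9 for 50 nM against 5 nM, and 8 to 10 and 5 to 12 for the difference of responses. The control comparisons kept 0 up and 0 down.

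Groups shared only replicate numbers, and deviations of same-numbered arrays correlated at -0.168 for the shRNA groups, 0.174 for DMSO and 5 nM, 0.049 for DMSO and 50 nM, -0.262 for untreated and DMSO, and -0.453 for untreated and lacZ. With the replicate block 5 genes rose and 5 fell with FLI1 shRNA, 9 and 10 at 5 nM, 6 and 8 at 50 nM, 10 and 8 for 50 nM against 5 nM, and the response differed for 8 up and 8 down. With the block crossed, 7 rose and 6 fell with FLI1 shRNA, and 2 were higher with lacZ shRNA than in untreated cells. Signals near the olfactory reference limit what can be said of dim genes.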
